A study of Mus musculus with 12 samples.

Results

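Genes of extracellular ATP signalling and a sodium channel gene were followed through the epidermis of the mouse hind paw: the ATP-gated channel genes P2rx2, P2rx4 and P2rx7, the nucleotide receptor genes P2ry2 and P2ry6, the ecto-enzyme gene Entpd1 and the sodium channel gene Scn3a. They were chosen by symbol and were all found, as 7 of the 32285 genes listed in the count matrices. Single-cell RNA-seq libraries came from glabrous hind paw epidermis of 12 wild-type C57BL/6J mice aged 16 to 18 weeks, each mouse giving 1 library. Each sex held 3 mice on a regular diet with 11% fat (RD) and 3 mice on a high-fat diet with 42% fat (HFD), both fed for 10 weeks from an age of 6 to 8 weeks, and no group carried a genetic change or a drug. The HFD group is a dietary model. Epidermal sheets were separated with dispase before the cells were released, so the data describe separated epidermis and not whole skin. The headers of the count matrices name Cell Ranger 6.1.0 for the 6 male and 7.2.0 for the 6 female libraries, whereas the submitters' processing notes name 7.2.0 for all 12, and this conflict was not resolved. If the headers hold, a difference between the sexes and a difference between the software versions cannot be told apart.

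ATP leaves stressed or stimulated cells and acts at the surface of their neighbours. P2X channels open a cation pore when ATP binds, P2Y receptors signal through G proteins, and ecto-enzymes such as CD39 (Entpd1) strip phosphates from ATP and ADP before CD73 (Nt5e) makes adenosine. In skin, keratinocytes release ATP on stimulation, Langerhans cells (LCs) are the resident antigen-presenting cells of the epidermis and carry surface CD39, and sensory endings respond to ATP through P2X channels. Scn3a encodes a voltage-gated sodium channel alpha subunit that is best known from developing and injured neurons.

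Over all barcodes, before filtering, the male libraries held 134449247 to 194673581 unique molecular identifiers (UMIs, one per captured transcript) each and the female libraries 135683082 to 173907390. After filtering, 62147 male and 64228 female cells remained. Between 0.204% and 0.564% of the cell barcodes of the smaller library of each pair were shared, as 15 to 70 barcodes over 66 pairs of libraries. The cells were clustered within each sex without the 7 genes and without the other purinergic and sodium channel genes. LC-like cells numbered 1343 in males and 2157 in females, and all 10 LC markers, Cd207 and Cd74 among them, were at least 5-fold above keratinocytes in both sexes. T cell-like cells numbered 220 in males and 339 in females, with all 10 T cell markers at least 5-fold above keratinocytes. Levels are given as CPM, the UMIs of a gene scaled to all UMIs summed over the cells of a class in a mouse, with the mouse as the replicate (mean ± SD, n = 6 within a sex unless stated). A level in such a sum mixes the number of expressing cells and the RNA in each of them. Because RNA released from other cells is captured as well, a share of cells with a UMI is set beside the share in a class that should lack the gene.

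The genes lie in 5 places of the GRCm38 build. Scn3a spans chr2:65457118-65567627 on the minus strand, and an antisense gene, Gm13595, overlaps it. P2rx2 is a compact gene at chr5:110339812-110343212 (minus strand). P2rx7 (chr5:122643911-122691432) and P2rx4 (chr5:122707544-122729738) are neighbours on the plus strand, and P2ry6 (chr7:100937630-100974649) and P2ry2 (chr7:100996568-101012866) are neighbours on the minus strand. Entpd1 spans chr19:40612366-40741602 on the plus strand. Entpd1 is overlapped on its own strand by AC166063.1, Gm16027 and Gm8783, which strand does not separate from it. The strand setting of the counting is not given in the sources used here. Whether UMIs of Scn3a and its antisense partner, and of P2ry6 and the overlapping Gm44545 on the opposite strand, were kept apart was not checked.

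Promoter sequences of P2rx7, P2rx4 and Entpd1 are shown because the first 2 genes are adjacent and had different profiles across the epidermis, while Entpd1 was nearly absent outside LC-like cells. Each window runs from 250 bases before to 50 bases after an annotated transcript start in RefSeq (GRCm38.p6, plus strand, 5′ to 3′). Capitals mark matches on either strand to 3 short motifs: GAGGAAG (PU.1 core), TGTGGTT (RUNX core) and TGAGTCA (AP-1 core).
P2rx7 promoter, chr5:122643677-122643976: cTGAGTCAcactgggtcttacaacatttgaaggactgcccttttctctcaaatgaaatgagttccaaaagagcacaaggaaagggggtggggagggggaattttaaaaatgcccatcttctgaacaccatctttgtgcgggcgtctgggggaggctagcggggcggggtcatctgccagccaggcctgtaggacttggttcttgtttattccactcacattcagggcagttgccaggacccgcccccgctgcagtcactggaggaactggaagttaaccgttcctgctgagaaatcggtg
P2rx7 promoter, chr5:122650133-122650432: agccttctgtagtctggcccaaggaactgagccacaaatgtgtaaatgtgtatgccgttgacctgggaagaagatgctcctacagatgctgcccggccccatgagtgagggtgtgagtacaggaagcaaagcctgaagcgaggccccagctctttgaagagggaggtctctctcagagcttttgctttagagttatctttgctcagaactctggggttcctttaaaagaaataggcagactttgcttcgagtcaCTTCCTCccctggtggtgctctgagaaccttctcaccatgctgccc
P2rx4 promoter, chr5:122707294-122707593: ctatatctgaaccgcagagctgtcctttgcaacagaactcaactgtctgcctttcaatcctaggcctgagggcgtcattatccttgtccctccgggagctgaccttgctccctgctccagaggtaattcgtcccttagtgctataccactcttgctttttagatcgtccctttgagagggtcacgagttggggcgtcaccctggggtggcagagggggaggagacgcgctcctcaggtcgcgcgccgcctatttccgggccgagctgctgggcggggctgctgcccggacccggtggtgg
Entpd1 promoter, chr19:40612116-40612415: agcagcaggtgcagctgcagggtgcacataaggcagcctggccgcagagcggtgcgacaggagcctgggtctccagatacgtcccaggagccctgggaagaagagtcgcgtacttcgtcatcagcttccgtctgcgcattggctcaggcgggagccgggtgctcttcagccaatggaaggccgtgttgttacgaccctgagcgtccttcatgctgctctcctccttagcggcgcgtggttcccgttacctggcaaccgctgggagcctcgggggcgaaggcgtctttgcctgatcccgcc
Entpd1 promoter, chr19:40659520-40659819: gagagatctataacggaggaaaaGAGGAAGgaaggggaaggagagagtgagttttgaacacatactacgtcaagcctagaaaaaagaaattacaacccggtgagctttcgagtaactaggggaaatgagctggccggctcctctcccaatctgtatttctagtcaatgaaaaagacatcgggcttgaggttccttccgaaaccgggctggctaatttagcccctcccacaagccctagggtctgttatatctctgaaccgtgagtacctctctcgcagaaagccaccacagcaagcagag
The upstream P2rx7 window held 1 AP-1 core and the second held 1 PU.1 core on the opposite strand, while the P2rx4 window held none of the 3 motifs. The first Entpd1 window held none and the second held 1 PU.1 core. Of 32851 promoter windows of the same length, 13.628% held the PU.1 core, 5.269% the RUNX core and 5.202% the AP-1 core, so single matches of this kind were common. Both P2ry2 windows held none of the 3 motifs. Of the 7 genes, 4 were matched to promoter windows, and those of Scn3a, P2rx2 and P2ry6 are not used here.

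Scn3a, the sodium channel gene, was almost confined to LC-like cells among the classes measured. Its level there was 8.68 ± 5.11 CPM in males and 39.7 ± 20.97 CPM in females, and pooled over mice it was 722-fold and 757-fold above keratinocytes, with the LC-like sum higher in 6 of 6 mice of each sex. On the log2 scale these ratios were 9.4955 and 9.56, and 8.29 and 8.70 when cells were thinned to 2000 UMIs. The male ratio was 10.24 without the subcluster of LC-like cells that held keratinocyte transcripts (described further on). Keratinocytes, taken here as all cells that were neither LC-like nor T cell-like, gave 9 Scn3a UMIs in males and 43 in females. This sum can hold a few other cells, such as 21 male cells led by Prg4, Fn1 and Col1a2 in a finer clustering. A UMI of Scn3a was seen in 4.91% of male and 21.3% of female LC-like cells (median depths 4527 and 6721 UMIs per cell), against 0.0148% and 0.0601% of basal keratinocytes (median depths 7321 and 9035.5). After each cell was thinned to 2000 UMIs the shares in LC-like cells were 2.03% and 7.84%, leaving out 64 male and 53 female cells that were shallower. The share thus stood well above the background in basal keratinocytes at equal depth in both sexes. T cell-like cells gave 0 Scn3a UMIs of 607411 in males and of 1711268 in females, which, as 3 counts of the total, allows up to 4.94 and 1.75 CPM.

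Among the other sodium channel genes, no alpha subunit gene had enough counts in LC-like cells to be tested in either sex. Scn8a, an alpha subunit gene of neurons, was at 26.8 ± 24.4 CPM in male and 18.6 ± 6.52 CPM in female T cell-like cells, from 15 and 32 UMIs.

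P2rx2, a P2X channel subunit known from sensory neurons, showed the same restriction. It was at 62.2 ± 26.2 CPM in male and 35.9 ± 13.2 CPM in female LC-like cells, and pooled it was 2093-fold and 1147-fold above keratinocytes, again higher in 6 of 6 mice of each sex. The log2 ratio was 11.03 in males, and 12.31 after thinning, and 10.16 in females, and 10.87 with doublets removed. After thinning, the male keratinocytes with a P2rx2 UMI were 1 terminally differentiated and 1 upper suprabasal cell. A UMI was found in 28.8% of male and 23.6% of female LC-like cells, or 14.9% and 8.60% after thinning to 2000 UMIs, against 0.0148% and 0.0060% of basal keratinocytes before thinning. In T cell-like cells P2rx2 had 0 UMIs in both sexes. Among thinned LC-like cells outside the subcluster with keratinocyte transcripts, P2rx2 was found in 6.88% of 160 Scn3a-positive and 10.0% of Scn3a-negative female cells, and in 23.1% of 26 Scn3a-positive and 17.5% of Scn3a-negative male cells. Both genes were found together in 11 female and 6 male thinned cells, too few to read an order from.

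P2rx4, the P2X channel best known from microglia and macrophages, was broader. LC-like cells had the highest mean, 22.9 ± 7.47 CPM in males and 46.3 ± 7.24 CPM in females, and were above keratinocytes in 6 of 6 mice of each sex, but only 2.69-fold and 4.20-fold when pooled. The male log2 ratio was 1.43, and 2.02 without the subcluster with keratinocyte transcripts. A keratinocyte cluster led by Tm4sf1 and Csrp2 came next at 13.03 ± 1.37 and 16.5 ± 1.92 CPM, and basal keratinocytes were at 11.2 ± 0.834 and 14.03 ± 1.42 CPM. The mean was lower in turn from proliferating (10.3 ± 0.709 and 11.5 ± 1.00 CPM) through spinous or suprabasal (6.58 ± 0.519 and 9.30 ± 1.08 CPM) to upper suprabasal cells (2.77 ± 0.116 and 4.56 ± 1.06 CPM). Terminally differentiated cells were at 4.69 ± 1.80 CPM in males, above upper suprabasal cells in 5 of 6 mice, and at 3.57 ± 1.90 CPM in females, below them in 4 of 6. Proliferating cells lay above spinous cells and spinous cells above upper suprabasal cells in 6 of 6 mice of each sex, whereas basal, migratory and T cell-like cells were not separated from their neighbours in the order. T cell-like cells had 12.2 ± 4.90 CPM in females from 20 UMIs in 6 mice, but in males 5 UMIs came from 1 mouse.

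P2rx7, the P2X channel that opens at high ATP and engages the NLRP3 inflammasome, had a different order of classes. LC-like cells stood at 2.81 ± 1.51 CPM in males and 10.3 ± 2.65 CPM in females, and exceeded keratinocytes in 2 of 6 mice of each sex. Its highest class was the terminally differentiated keratinocytes, the Flg and Lor expressing outermost living layer, with 7.66 ± 1.73 CPM in males and 130.3 ± 26.7 CPM in females. In females, terminally differentiated cells lay above every other class in 6 of 6 mice, with per-mouse values of 137, 128 and 174 CPM on RD and 127, 90.0 and 126 CPM on HFD. In males the same class did not separate from migratory keratinocytes (7.24 ± 1.36 CPM), which it exceeded in 3 of 6 mice. A P2rx7 UMI was seen in 466 of 1285 female terminally differentiated cells, with up to 79 UMIs in a cell. That share was 36.3%, or 13.9% after thinning to 2000 UMIs, against 1.81% and 0.260% of female spinous or suprabasal cells, at median depths of 14678 and 15171 UMIs. Spinous or suprabasal keratinocytes were at the low end of the order, with 0.303 ± 0.104 CPM in males and 1.38 ± 0.356 CPM in females, so the level was not graded along differentiation. Basal keratinocytes (4.21 ± 0.413 and 11.2 ± 1.35 CPM) and proliferating ones (4.84 ± 0.639 and 11.6 ± 1.71 CPM) lay between them. A small female cluster led by Pmel and Lhx2, which carries hair and pigment genes and was left unnamed, had 28.1 ± 5.45 CPM.

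P2ry2, a receptor for ATP and UTP, was highest in upper suprabasal keratinocytes. Upper suprabasal keratinocytes had 4.35 ± 0.783 CPM in males and 2.71 ± 0.559 CPM in females, above spinous or suprabasal cells (2.59 ± 0.460 and 1.18 ± 0.175 CPM) in 6 of 6 mice of each sex. Basal keratinocytes were at 0.580 ± 0.208 and 0.208 ± 0.0812 CPM, and terminally differentiated cells were at 0.541 ± 0.355 and 0.246 ± 0.242 CPM. LC-like cells gave 15 UMIs in each sex (1.53 ± 1.07 and 0.908 ± 0.447 CPM), and lay above keratinocytes in 3 of 6 male and 4 of 6 female mice, which separates them from the keratinocyte level in neither sex. P2rx4 and P2ry2 thus ran in opposite directions between the basal and the upper suprabasal class in both sexes.

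P2ry6, a receptor for UDP known from phagocytes, had few UMIs and its highest level in LC-like cells. The level was 4.33 ± 2.44 CPM in males (37 UMIs) and 4.45 ± 1.31 CPM in females (77 UMIs), against 9 and 16 UMIs in the far more numerous keratinocytes. It was 366-fold and 210-fold above keratinocytes when pooled and higher in 6 of 6 mice of each sex. The log2 ratio was 8.52 in males, 7.85 after thinning and 9.40 with doublets removed, and 7.71 in females and 9.59 after thinning. The thinned ratios rest on very few keratinocytes with a UMI, in females on 1 spinous or suprabasal cell. No P2ry6 UMI was found in T cell-like cells, which allows the same 4.94 and 1.75 CPM as for Scn3a, so in males a difference from LC-like cells was not detectable at this depth. P2ry6 and P2ry2, neighbours on the chromosome, therefore had their highest levels in different compartments.

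Entpd1, the gene of CD39, stood at 10.9 ± 3.54 CPM in male and 13.8 ± 5.09 CPM in female LC-like cells. These sums were 1131-fold and 221-fold above keratinocytes when pooled, and were higher in 6 of 6 mice of each sex. The male log2 ratio was 10.14, 9.12 at up to 10% mitochondrial UMIs and 10.86 without the subcluster with keratinocyte transcripts. Keratinocytes gave 7 Entpd1 UMIs in males and 48 in females. T cell-like cells gave 0 UMIs in males and 0.905 ± 1.44 CPM in females. The next enzyme of the pathway, Nt5e (CD73), was seen elsewhere, with 21.8 ± 9.62 and 117.9 ± 64.7 CPM in T cell-like cells and 34.4 ± 1.92 and 55.6 ± 18.3 CPM in migratory keratinocytes.

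**Figure D1:**
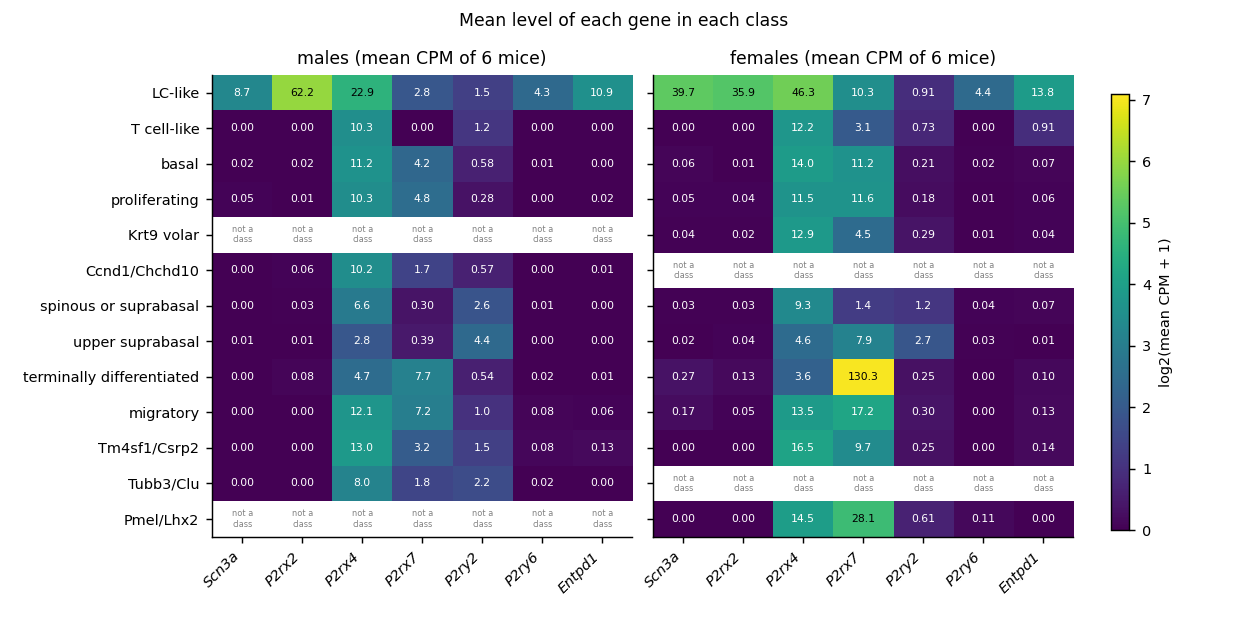
Mean level of each of the 7 genes (columns) in each cell class (rows) over 6 mice, males left and females right. Numbers are mean CPM and colour is log2(mean CPM + 1). Scn3a, P2rx2, P2ry6 and Entpd1 have their highest mean in the LC-like row and low values in the others. P2rx4 is spread over most rows, and P2rx7 peaks in terminally differentiated cells (7.66 CPM in males, 130.3 CPM in females).

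The LC-like cells fell into a main subcluster (1011 male and 1746 female cells), a proliferating one (40 and 34), a Ccr7+ one (15 male cells from 5 mice and 32 female cells) and one that also held keratinocyte transcripts (277 and 345 cells). The last of these had median depths of 13553 and 16555 UMIs per cell against 4005 and 6270 in the main subcluster. P2rx2 was at 101 CPM in the main subcluster of males (95% Poisson interval 91.7 to 112) and 48.0 CPM in females (44.1 to 52.3), and at 18.1 and 14.8 CPM in cells with keratinocyte transcripts. In Ccr7+ cells, which are LCs in the state that leaves the skin, P2rx2 had 0 UMIs in both sexes, which, as 3 counts of the total, allows up to 47.1 CPM in males and 13.2 CPM in females. Both limits, and the upper ends of the 95% Poisson intervals (57.9 and 16.2 CPM), lie below the interval of the main subcluster of the same sex. Proliferating LCs were below that interval as well, with 32.4 CPM (13.97 to 63.7, 8 UMIs) in males and 11.6 CPM (3.16 to 29.7, 4 UMIs) in females, although over mice they ran from 0 to 102 CPM and from 0 to 59.3 CPM and overlapped the main subcluster. P2rx4 was instead detected in Ccr7+ cells, with 94.2 CPM (34.6 to 205, 6 UMIs) in males and 74.6 CPM (43.5 to 119, 17 UMIs) in females, intervals that overlap those of the main subcluster (32.6 and 58.0 CPM). These intervals cover counting error only, and cells of 1 mouse share their source.

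Within the main subcluster, Scn3a in females was at 78.3 CPM (66.7 to 91.3) in the part led by Atf3 and Klf2, against 54.4 CPM (49.5 to 59.6) and 22.3 CPM (13.0 to 35.7) in the other 2 parts. Over mice these parts overlapped, at 52.9 to 112 CPM, 13.8 to 117 CPM and 0 to 60.7 CPM. In males the part named chemokine-high was led by Klf2, Jun, Hspa1b and Hspa1a, ahead of Ccl4 and Ccl3. It had 22.7 CPM (15.3 to 32.4), which overlapped the part led by Ccl22 and Myo10 (12.95 CPM, 8.12 to 19.6), and the third part had 7.02 CPM (2.82 to 14.5). The male chemokine-high values ran from 3.78 to 62.5 CPM over mice, so no order of the parts is read in either sex. In females, Scn3a was also found in proliferating LCs (69.7 CPM, 24 UMIs in 4 mice) and in Ccr7+ cells (43.9 CPM, 10 UMIs in 4 mice). Entpd1 in female proliferating LCs was 69.7 CPM from 24 UMIs in 5 mice, with an SD over mice of 100.1 CPM. P2rx7 in females ran from 4.39 to 41.1 CPM over mice in the part led by Atf3 and Klf2 and from 1.06 to 12.1 CPM in the part led by Adgrl2 and Fmnl2, which overlap.

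**Figure D2:**
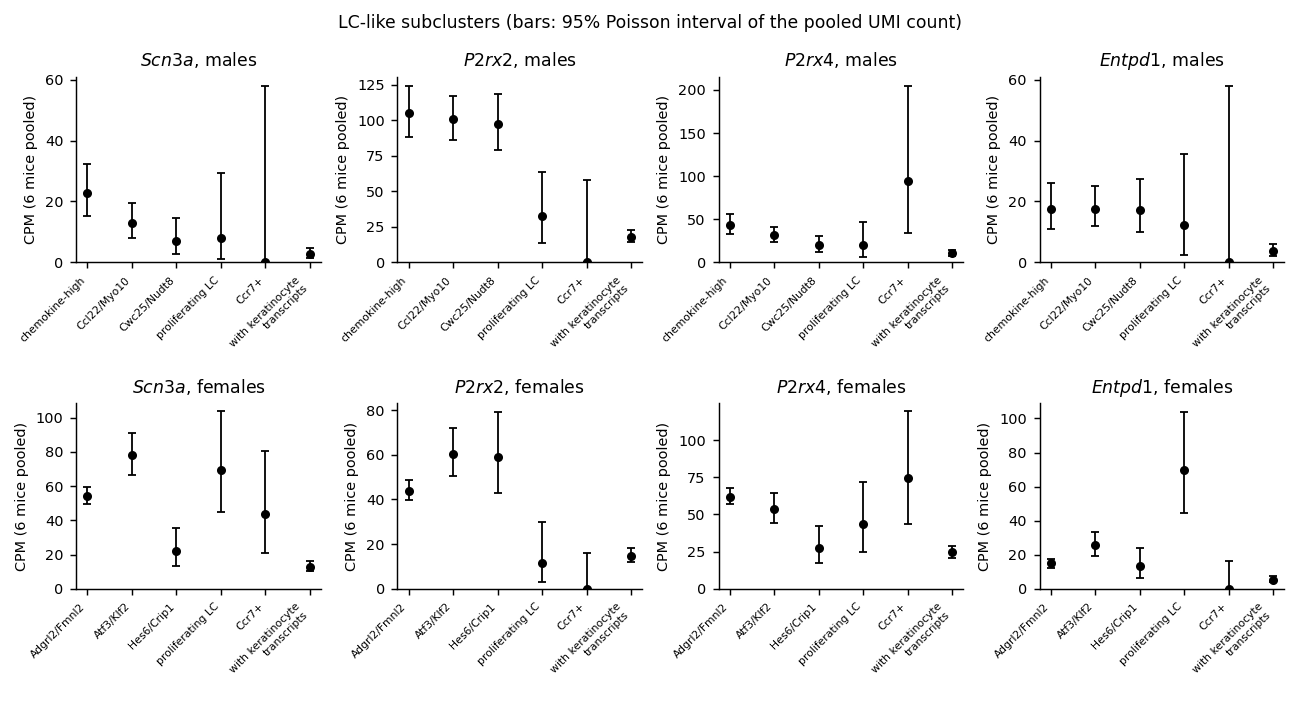
Scn3a, P2rx2, P2rx4 and Entpd1 in 6 LC-like subclusters (x axis), males in the upper row and females in the lower row. Points are CPM pooled over mice (5 mice for male Ccr7+ cells, 6 elsewhere) and bars are 95% Poisson intervals. P2rx2 is at 0 in Ccr7+ cells of both sexes, while P2rx4 is 94.2 and 74.6 CPM there.

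The diet comparison asked whether HFD altered these genes in LCs within each sex. Summed over all LC-like cells, Scn3a was higher in every HFD mouse than in every RD mouse of both sexes, at 6.78, 5.59 and 2.01 CPM on RD and 13.3, 8.55 and 15.9 CPM on HFD in males. In females it was 25.5, 16.8 and 34.7 CPM on RD and 76.2, 35.3 and 49.4 CPM on HFD. The lowest HFD female exceeded the highest RD female by less than 1 CPM. Within the main subcluster the male groups stayed apart (3.46 to 13.1 CPM on RD, 14.6 to 32.3 CPM on HFD), but the female groups overlapped (17.95 to 45.3 CPM on RD, 43.6 to 112 CPM on HFD). The male values there rest on 10, 8 and 2 UMIs on RD and 10, 9 and 20 UMIs on HFD. After thinning to 2000 UMIs, the share of all male LC-like cells with an Scn3a UMI overlapped between diets. It was 1.57%, 1.77% and 0.714% on RD and 1.54%, 1.13% and 5.495% on HFD. The female shares were 1.66% to 6.45% on RD and 7.37% to 15.2% on HFD. Across all genes tested in LC-like cells, 6.87% in males and 8.18% in females had every HFD mouse above every RD mouse, which is the level these counts are read against. Neither difference passed edgeR's quasi-likelihood test after Benjamini-Hochberg adjustment over all genes, with a log2 fold change of 1.23 ± 0.41 (SE, n = 3 against 3, adjusted p = 0.868, unadjusted p = 0.0102) in males and 1.03 ± 0.29 (adjusted p = 0.323, unadjusted p = 0.00460) in females. In males Scn3a reached this test only through its HFD mice, since all RD values lay below the limit of the filter on low counts. The male estimate and its p values are therefore not read as support for a diet effect. The female difference passed the threshold without the filter on low counts (edgeR adjusted p = 6.067e-08), where 255 genes were called in all, against 6 with the filter. Its adjusted p ran from 6.067e-08 to 0.674 over 14 alternatives that used mice as replicates. The exact two-sided permutation test gave 0.1 in each sex, the smallest p that 3 mice against 3 can give.

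Over all LC-like cells, P2rx2 was separated by diet in females, with 28.8, 21.1 and 25.6 CPM on RD and 38.8, 45.04 and 56.2 CPM on HFD. In males the groups overlapped, with 37.6, 48.4 and 58.3 CPM on RD and 113, 60.6 and 55.2 CPM on HFD. Within the main subcluster both sexes were separated, with 73.2 to 93.7 CPM on RD and 103 to 156 CPM on HFD in males, and 29.4 to 34.96 CPM on RD and 54.8 to 83.7 CPM on HFD in females. In that subcluster 7.62% of the tested genes in males and 10.1% in females had every HFD mouse above every RD mouse. The log2 fold change was 0.86 ± 0.18 in females (edgeR adjusted p = 0.164) and 0.64 ± 0.26 in males (adjusted p = 0.894). The male estimate was 0.27 without HFD replicate 1, the mouse at 113 CPM. The female difference passed the threshold without the subcluster that held keratinocyte transcripts (edgeR adjusted p = 0.0191, against 0.488 in males) and, over all LC-like cells, with DESeq2 (adjusted p = 0.0437). In females the first setting called 96 genes in all and the second 37. The adjusted p of the female difference ran from 5.469e-05 to 0.511 over 14 alternatives that used mice as replicates.

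The other 5 genes showed no separation by diet in LC-like cells. Entpd1 was at 7.83, 8.85 and 9.05 CPM on RD and 16.6, 13.99 and 8.97 CPM on HFD in males, where 1 HFD mouse overlapped the RD group, and at 9.47, 11.2 and 13.1 CPM against 16.3, 9.78 and 22.8 CPM in females. Its log2 fold changes were 0.56 ± 0.33 (edgeR adjusted p = 0.894) and 0.50 ± 0.29 (adjusted p = 0.675). P2rx4 gave 0.27 ± 0.31 in males (18.3, 16.8 and 28.2 CPM on RD, 27.6, 13.99 and 32.4 CPM on HFD) and 0.02 ± 0.17 in females (46.2, 38.0 and 52.8 CPM against 42.1, 56.9 and 41.8 CPM), with adjusted p values of 0.946 and 0.988. P2rx7 gave -0.22 ± 0.28 and P2ry6 gave -0.43 ± 0.35 in females (adjusted p = 0.875 and 0.776). Counts of P2ry2 in both sexes and of P2rx7 and P2ry6 in males were too low for the filter, and exact permutation tests of their CPM gave p = 0.8 (P2ry2, females), 0.5 (P2ry2, males), 0.7 (P2rx7, males) and 0.5 (P2ry6, males).

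Of the 7 genes, 4 were tested in male and 6 in female LC-like cells, and 0 were called in either sex. The background over all tested genes was as low, with 0% called in males (0 of 8213 genes) and 0.0569% in females (6 of 10544 genes), although 440 male and 919 female genes were under 0.05 before adjustment and DESeq2 called 2 and 37 genes. The 6 female calls became 0 to 43 when a mouse was left out, 43 without HFD replicate 2, 1 without HFD replicate 3 and 0 without any of the others. The diet effect was then compared between the sexes in a single fit of all 12 mice. The female minus male difference was -0.17 ± 0.57 for Scn3a and 0.25 ± 0.35 for P2rx2 on the log2 scale (edgeR adjusted p = 1.00 and 0.976), and 0 of 10582 genes were called (0%, with 565 genes under 0.05 unadjusted and 0 by DESeq2). The summed CPM of 4 keratins in LC-like cells was 3380 to 7866 over female and 13022 to 20292 over male mice, and overlapped between RD and HFD in both sexes. The subcluster with keratinocyte transcripts made up 11.6% to 21.2% of LC-like cells in RD and 12.7% to 21.7% in HFD females, and 16.9% to 23.9% in RD and 9.23% to 20.7% in HFD males. Counted in UMIs its share was larger, with 4369823 of 8699098 LC-like UMIs in males and 5950620 of 17763636 in females. Levels over all LC-like cells are sums of these UMIs. The macrophage and monocyte list, all 6 of whose markers were detected, summed to 297 to 384 CPM on RD and 277 to 394 CPM on HFD in females, and to 442 to 634 and 532 to 887 CPM in males. The Schwann cell or neuron list of 6 markers was separated by diet in males, at 20.1 to 32.3 CPM on RD and 10.3 to 18.7 CPM on HFD, with Sox10 and Snap25 at 0, and overlapped in females, at 15.7 to 21.1 and 6.63 to 23.5 CPM, with Snap25 at 0. This list holds Tubb3, which together with Clu also led a male keratinocyte cluster. The share of genes lower in every HFD mouse was not counted in LC-like cells, so no diet difference is read from the list. The 4 mast cell markers were at 0 in all groups. The part of these values in the gene levels was not tested.

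**Figure D3:**
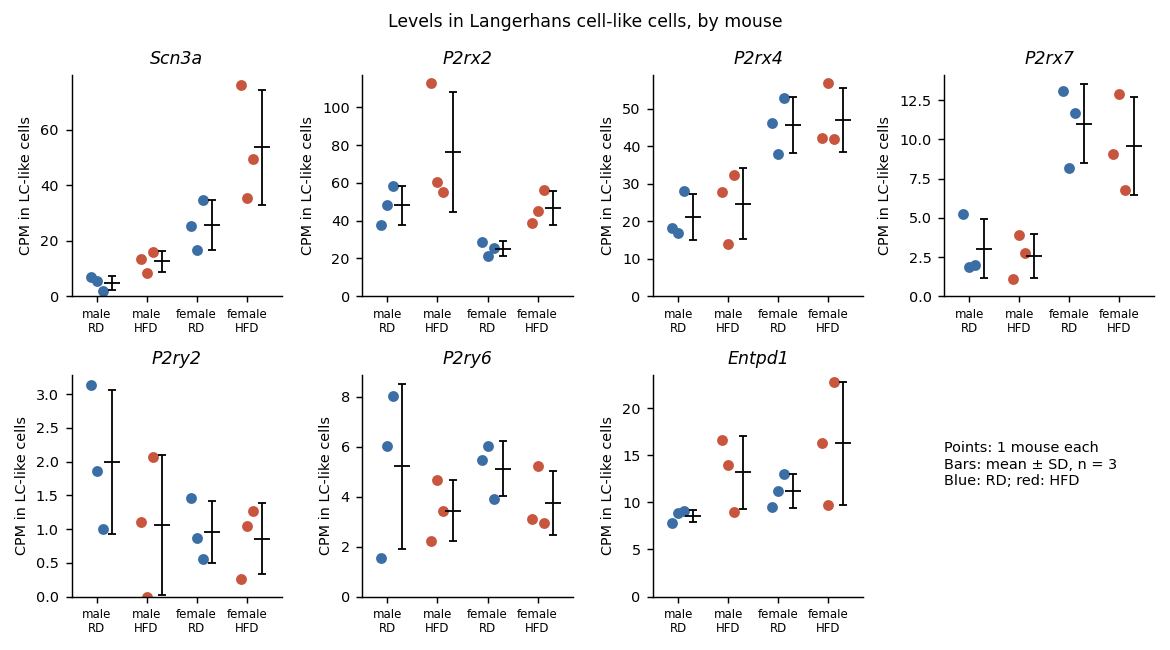
CPM of the 7 genes in LC-like cells (y axis, 1 panel per gene) for each of the 12 mice, grouped by sex and diet on the x axis, RD in blue and HFD in red. Bars are mean ± SD of 3 mice. Scn3a is the gene whose HFD points all lie above the RD points in both sexes (males 8.55 to 15.9 against 2.01 to 6.78 CPM), and P2rx2 does so in females.

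In keratinocytes as a whole, P2rx4, P2rx7 and P2ry2 had enough counts to be tested and 0 of these 3 were called in either sex. In females the estimates were all below 0, with log2 fold changes of -0.19 ± 0.07 for P2rx4, -0.30 ± 0.11 for P2rx7 and -0.29 ± 0.16 for P2ry2 (edgeR adjusted p = 0.175, 0.153 and 0.339), although female keratinocytes held 604 called genes of 17720 (3.41%). The 604 calls became 2 without RD replicate 1 or 2, 6 without RD replicate 3 or HFD replicate 3, and 916 without HFD replicate 2. P2ry2 was lower in every HFD female (0.599 ± 0.0377 CPM) than in every RD female (0.699 ± 0.0465 CPM, n = 3 each), as were 8.1% of the genes tested in these cells. The other 4 genes had 7 to 48 UMIs in the keratinocytes of a sex, too few to pass the filter. Of these, Scn3a in females (43 UMIs) was at 0.0256, 0.0390 and 0.0230 CPM on RD and 0.102, 0.0660 and 0.0663 CPM on HFD. The exact two-sided permutation test gave p = 0.1, the smallest possible here. These values rest on 3 to 16 UMIs per mouse, and the share of all genes separated upwards in these cells was not counted. No diet difference is therefore read from them. In males the estimates were 0.03 ± 0.08, -0.14 ± 0.14 and -0.18 ± 0.17 (adjusted p = 0.936, 0.809 and 0.791), with 0 of 15053 genes called (0%, with 1368 genes under 0.05 unadjusted, and 195 by DESeq2).

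**Figure D4:**
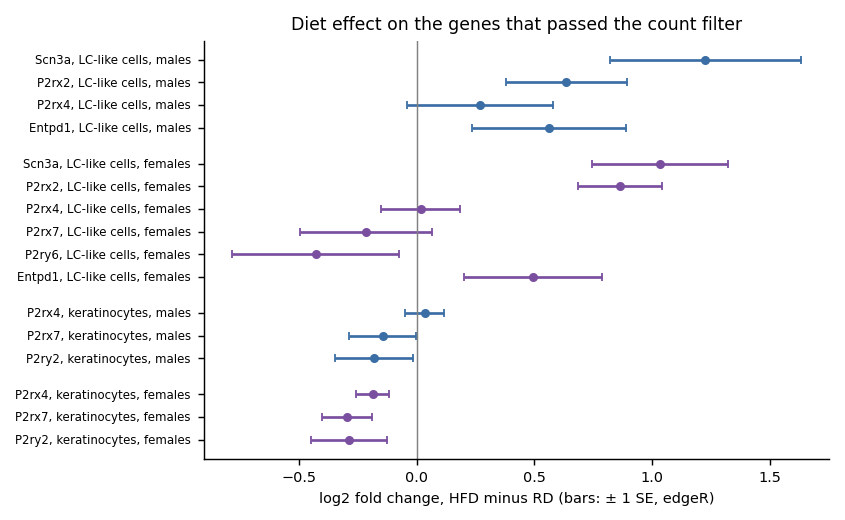
Log2 fold change of HFD minus RD (x axis) for each gene that passed the count filter, in LC-like cells and keratinocytes of males (blue) and females (purple), with bars of 1 SE, derived from the F statistic of edgeR. Scn3a and P2rx2 lie furthest to the right in LC-like cells (0.64 to 1.23), and the 3 estimates in female keratinocytes lie left of 0. Male Scn3a passed the filter only through its HFD mice.

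The keratinocyte stages were then fitted separately. In females 16 pairs of gene and stage were tested over 7 stages, 15 with an estimate below 0, and in males 13 pairs over 6 stages, 8 with an estimate below 0. The pairs repeat the same few genes in the same mice, so they are not independent. Over all tested genes the median log2 fold change was -0.0014 to 0.0285 in the female stages and -0.061 to 0.0023 in the male stages. Called pairs numbered 0 in both sexes, and 2 female and 0 male pairs were under 0.05 before adjustment. Of the female pairs, 1 was in spinous or suprabasal cells, where 2910 of 13255 genes were under 0.05 unadjusted. The other was in terminally differentiated cells, where 634 of 7880 genes were. In female stages the share of all tested genes that was called was 0.986% (basal), 1.71% (Krt9 volar), 3.58% (spinous or suprabasal), 1.51% (proliferating), 0.383% (migratory), 0.142% (upper suprabasal) and 0% (terminally differentiated), and it was 0% in all 6 male stages. By edgeR, 667 to 2369 genes were under 0.05 unadjusted in the male stages and 634 in female terminally differentiated cells, where DESeq2 called 16 to 83 and 11 genes. P2rx7 in female terminally differentiated cells was 146 ± 24.2 CPM on RD and 115 ± 21.3 CPM on HFD, where the highest HFD mouse (127 CPM) lay just below the lowest RD mouse (128 CPM), as in 3.13% of the genes tested there, with a log2 fold change of -0.58 ± 0.24 (edgeR adjusted p = 0.596). P2rx4 in female spinous or suprabasal cells was 10.0 ± 0.625 CPM on RD and 8.57 ± 0.983 CPM on HFD (-0.26 ± 0.10, adjusted p = 0.164).

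**Figure D5:**
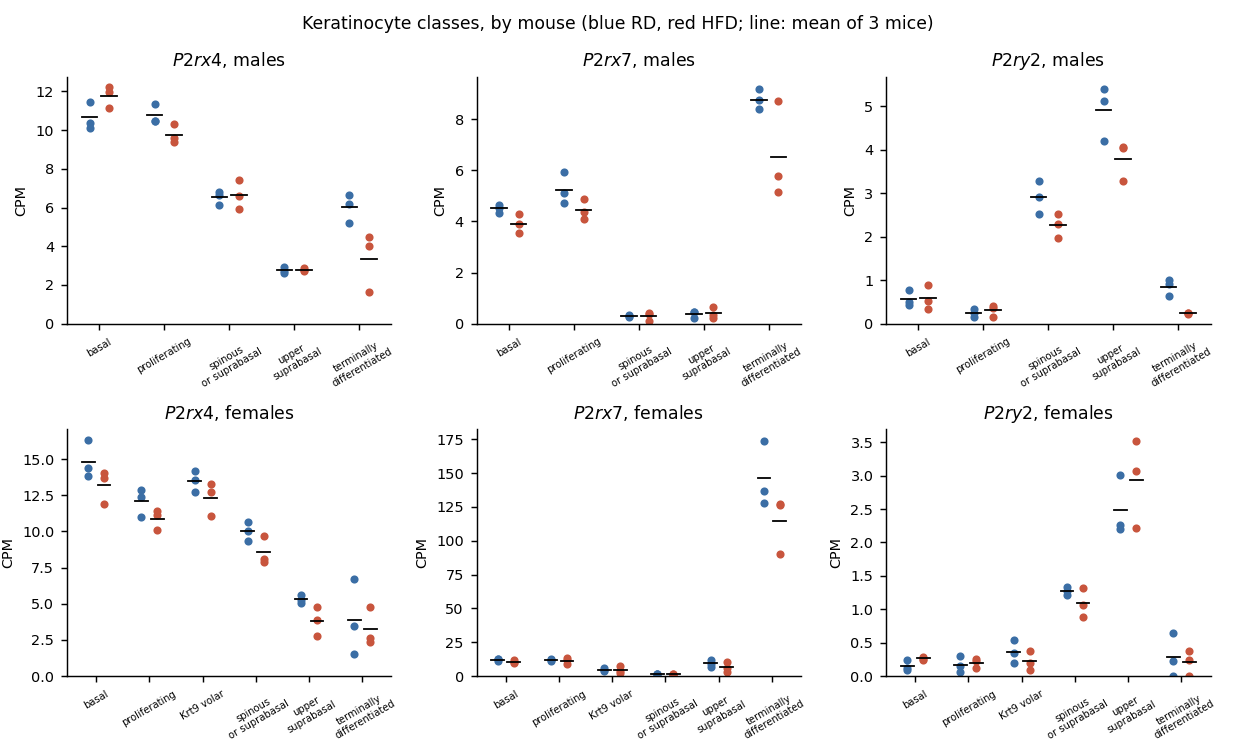
P2rx4, P2rx7 and P2ry2 in keratinocyte classes (x axis) as CPM per mouse (y axis, from 0), males above and females below, RD in blue and HFD in red, with lines at the mean of 3 mice. P2rx4 declines from basal to upper suprabasal cells (11.2 to 2.77 CPM in males), P2ry2 is highest in upper suprabasal cells, and P2rx7 is highest in terminally differentiated cells.

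The other genes of the pathway were followed in 8 lists of 54 genes, which cover the remaining P2X channels, P2Y receptors, adenosine receptors, nucleotide-hydrolysing enzymes, ATP release and nucleoside transport, the inflammasome downstream of P2X7 and the sodium channel subunits. In LC-like cells 18 of these genes were tested in males and 22 in females, and 0 were called in either. P2ry10, a lysophospholipid-responsive relative of the P2Y receptors, stood at 121 ± 28.2 CPM in male and 285 ± 22.4 CPM in female LC-like cells, and at 98.1 ± 56.6 and 115 ± 19.6 CPM in T cell-like cells. P2ry14, a receptor for UDP-sugars, was at 32.7 ± 11.3 and 96.4 ± 9.10 CPM in LC-like cells, P2rx5 at 18.0 ± 4.35 and 31.4 ± 6.80 CPM, and the adenosine receptor gene Adora2b at 10.6 ± 2.03 and 42.6 ± 6.29 CPM. Of the inflammasome list, Nlrp3 was at 289 ± 37.1 and 527 ± 78.0 CPM in LC-like cells, whereas Il18 was highest in terminally differentiated keratinocytes (880 ± 139.9 and 743 ± 63.7 CPM), the class in which P2rx7 was highest.

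In keratinocytes, 30 list genes were tested in males with 0 called, and 34 in females with 1 higher and 1 lower on HFD, beside 0% and 3.41% of all tested genes called, so nothing is read from the count. Casp1, the inflammasome protease, rose from 20.7 ± 1.41 to 27.9 ± 0.149 CPM in females (log2 fold change 0.37 ± 0.06, edgeR adjusted p = 0.0275). Gjb2, the connexin of upper keratinocytes, fell from 105 ± 4.01 to 66.7 ± 12.9 CPM (-0.72 ± 0.14, adjusted p = 0.0390). Over the 7 female stages, 148 pairs of gene and stage were tested and 7 were higher and 3 lower, while 0 of 113 male pairs were called. The higher pairs were of Pycard, Casp1 and P2rx3 alone and the lower ones of Gjb2 and Nt5e. They repeat these genes in the same mice, so the pairs are not independent. Of all tested genes, 0% to 3.58% were called in the female stages and 0% in the male stages. Pycard, the inflammasome adaptor, rose in female basal cells from 124 ± 5.10 to 197 ± 16.3 CPM (0.65 ± 0.07, adjusted p = 0.0144), and P2rx3, the P2X subunit that pairs with P2rx2 in sensory neurons, rose in female spinous or suprabasal cells from 1.32 ± 0.389 to 3.93 ± 1.05 CPM (1.56 ± 0.26, adjusted p = 0.0230). Nt5e fell in female migratory cells from 71.2 ± 8.41 to 40.1 ± 6.498 CPM (-0.85 ± 0.13, adjusted p = 0.0304). Each of these 5 calls was lost without RD replicate 1 (edgeR adjusted p = 0.111 for Casp1, 0.124 for Gjb2, 0.0811 for Pycard, 0.0979 for P2rx3 and 0.111 for Nt5e) and without RD replicate 3 (0.128, 0.144, 0.0813, 0.0654 and 0.0654). Without RD replicate 2 the first 4 were lost as well (0.104, 0.128, 0.0888 and 0.0873). Without HFD replicate 3 the calls of Casp1, Gjb2, P2rx3 and Nt5e were lost (0.0809, 0.118, 0.0705 and 0.0973), and that of Nt5e also without HFD replicate 1 (0.0850) or 2 (0.0702). With the replicate number as a block the calls of Casp1 and Gjb2 in keratinocytes were lost too (0.0815 and 0.0916). The directions held in 6 of 6 fits without a mouse for each gene.

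The sexes are given side by side because sex and the software version in the matrix headers coincide. Female over male folds in LC-like cells were 5.01 for Scn3a, 2.15 for P2rx4, 3.48 for P2rx7, 1.34 for Entpd1, 1.02 for P2ry6, 0.627 for P2rx2 and 0.490 for P2ry2. These folds use sums over all LC-like cells. The subcluster with keratinocyte transcripts held 4369823 of 8699098 of these UMIs in males and 5950620 of 17763636 in females. The lowest number of detected genes asked of a cell also differed, at 200 in males and 500 in females. The part of either in the folds was not tested. Over all genes of at least 5 CPM in LC-like cells, the median log2 ratio of female to male was -0.33 for genes with under 2000 intron bases, 0.03 for 2000 to 20000, 0.47 for 20000 to 50000 and 1.14 for over 50000, with 0.31 over all 9533 genes. The 7 genes lay on both sides of these medians. Scn3a (98051 intron bases) had a log2 ratio of 2.33 but Entpd1 (123657) had 0.43, and P2rx7 (41552) had 1.80 but P2ry6 (34133) had 0.03. P2rx4 (15170) had 1.10, P2ry2 (12372) had -1.03 and P2rx2 (827) had -0.67. The part of intron length in these ratios was not tested. P2rx7 in terminally differentiated cells was 17.5-fold higher in females, where genes with 20000 to 50000 intron bases, as P2rx7 has (41552), had a median log2 ratio of 0.15.

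Genes whose profile over 66 sums of class and mouse within a sex was most like that of each gene were listed by Pearson correlation of log2(CPM + 1), as a description in which the points share libraries and classes. For Scn3a in females these were Zfp366 (0.986), Alox5 (0.986) and H2-DMb2 (0.985), and for P2rx2 Ifi207 (0.993) in females and Themis2 (0.999) in males. P2rx4 was most like Phc2 (0.917) in females and E4f1 (0.895) in males, P2rx7 most like Sec14l1 (0.890) and Uaca (0.824), and P2ry2 most like Chmp5 (0.740) and Ttc22 (0.849). Entpd1 was most like Adgre1 (0.952) in females, and Scn3a and Entpd1 in males and P2ry6 in both sexes had too few UMIs to be ranked.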

How the data were processed

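Per the labels, the authors aligned the reads to GRCm38 (mm10) and counted UMIs with Cell Ranger 7.2.0, while the file headers name 6.1.0 for males and 7.2.0 for females. They deposited filtered matrices of raw UMI counts per gene and cell. Whether intronic reads were counted is not given in the sources used here. Barcodes passed with 200 (males) or 500 (females) to 6000 detected genes and a mitochondrial share of 5% or less. Cells were normalised, reduced to 10 components and clustered by Leiden within each sex (leidenalg 0.10.2), leaving out the purinergic and sodium channel genes. Clusters were named from fixed markers. UMIs were summed per mouse and class and tested with edgeR 4.0.16 (TMM, filterByExpr, quasi-likelihood test, Benjamini-Hochberg threshold 0.05), with DESeq2 1.42.0 as an alternative (R 4.3.3). The SE given with a log2 fold change was the absolute fold change divided by the square root of the F statistic of edgeR. Genes removed by the filter were tested by exact permutation over mice when they had at least 10 UMIs. The code was tested on simulated data. Levels, folds and correlations carry no test. In the text, the 7 genes and the lists were chosen with earlier results of these data known, so they are no independent support. Genes named are the 7, list genes with at least 10 CPM in a class or called in a diet comparison, class markers, and the 3 genes most like each of the 7 with at least 200 UMIs. A single list gene that also met this rule is not reported here. Doublets were left in and removed as an alternative.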

Additional observations from a re-analysis of the deposited data

How the results depend on the processing

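With LC-like cells, the number of genes called for diet went from 0 in males to 2 with DESeq2, 54 without the filter on low counts, and, over single cells, 896, and from 6 in females to 37, 255 and 756, the last treating cells as replicates. Other settings gave 8 in males and 96 in females without the subcluster holding keratinocyte transcripts, and in females 2 with doublets removed, 1 with the marker gate and 0 with the replicate number as a block. Leaving out 1 mouse gave 0 to 43 in females (43 without HFD replicate 2). For keratinocytes the count went from 0 in males to 195 (DESeq2), 87 (no filter) and 1 (replicate block), and 0 to 1 without 1 mouse, and from 604 in females to 1524 (DESeq2) and 6 (replicate block), and 2 to 916 without 1 mouse (2 without RD replicate 1 or 2, and 6 without RD replicate 3 or HFD replicate 3). Without the filter 57 genes were called for the difference between the sexes, and 1 of the 7 genes in a female stage, P2rx7 in upper suprabasal cells. In that stage 586 genes were called without the filter, against 16 with it. Same-numbered mice did not deviate together (correlations from -0.24 to 0.18), so the block was not part of the main design.

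In female LC-like cells Scn3a was called without the filter (edgeR adjusted p = 6.067e-08) and over single cells (Wilcoxon rank-sum adjusted p = 4.829e-15). Over single cells Scn3a was called in males as well (Wilcoxon rank-sum adjusted p = 0.004979). P2rx2 was called in female LC-like cells without the filter (5.469e-05), with DESeq2 (0.0437), without the subcluster holding keratinocyte transcripts (0.0191) and over single cells (1.144e-09). These calls stand beside the larger counts over all genes given above for the same settings. The Wilcoxon tests took cells as replicates, so their p values do not measure the spread between mice and are not read as support. Log2 estimates turned sign as follows. P2rx4 in males ran from -0.029 (without HFD replicate 3) to 0.55 without 1 mouse, and in females was -0.0359 with doublets removed, -0.0286 without the subcluster holding keratinocyte transcripts and -0.15 to 0.15 without 1 mouse. P2rx7 in females was 0.0562 with doublets removed, the sex difference for Scn3a ran from -0.52 to 0.11 and P2rx4 in male keratinocytes from -0.0212 to 0.0676. The cause was not tested.

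The log2 ratio of LC-like cells to keratinocytes moved for Scn3a to 8.29 (males) and 8.70 (females) after thinning from 9.4955 and 9.56, for P2rx2 in males to 12.31 from 11.03, for P2ry6 in females to 9.59 from 7.71, and for Entpd1 in males to 9.12 from 10.14 at 10% mitochondrial UMIs. The thinned ratios of Scn3a and P2rx2 in males and of P2ry6 in females rest on very few keratinocytes with a UMI. For P2rx4 the ratio was 1.97 (doublets removed) and 2.02 (without the subcluster) in males, from 1.43, and 2.38 and 2.38 in females, from 2.07. For P2rx7 it turned sign in males (-0.14 to 0.41 without 1 mouse) and in females (0.0070 without the subcluster, 0.0214 after thinning), and for P2ry2 in males it was -0.23 with doublets removed, -0.0774 with the gate, -0.0832 without the subcluster, -0.69 after thinning and -0.28 to 0.21 without 1 mouse. For the sex difference, the marker gate and the fit without the subcluster were chosen after seeing the data. Low UMI counts limit P2ry2 and P2ry6 in LC-like cells and every gene in T cell-like cells.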

Other observations

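Some genes of the adenosine and connexin lists had class patterns that stand outside the comparisons above. Adk, which turns adenosine into AMP, was at 56.8 ± 4.77 CPM in male and 89.9 ± 6.94 CPM in female basal keratinocytes (n = 6 mice each), against 14.3 ± 1.19 and 25.2 ± 1.23 CPM in spinous or suprabasal cells. Slc29a1, a nucleoside transporter, was at 37.3 ± 1.09 and 53.0 ± 3.56 CPM in basal cells. P2ry1, an ADP receptor, was at 10.4 ± 1.02 and 21.6 ± 2.71 CPM in basal cells, and Panx1, a channel that releases ATP, was at 23.5 ± 1.01 and 30.99 ± 2.44 CPM there and at 22.6 ± 5.22 and 44.98 ± 14.3 CPM in LC-like cells. Gjb2 was at 976 ± 142 and 560 ± 75.9 CPM in upper suprabasal keratinocytes.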
